A study of Macaca mulatta with 15 samples.

Results

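The nuclear genome encodes most subunits of the mitochondrial respiratory chain and of ATP synthase, and 67 such genes were followed here across 4 T cell subsets of rhesus macaque blood. They were chosen by name: every row of the deposited count table whose symbol starts with NDUFA, NDUFB, NDUFC, NDUFS, NDUFV, UQCR, COX4 to COX8, ATP5F, ATP5M or ATP5P, or is SDHA, SDHB, SDHC, SDHD or CYC1. Assembly factors whose symbols start with NDUFAF were left out, as were genes with a mean under 1 CPM (read counts scaled to a common library total) over the 15 libraries. Of 34884 rows, 71 had such a symbol and 67 remained. The 67 comprise 30 subunits of complex I, 4 of complex II, 6 of complex III, 12 of complex IV (NDUFA4 included) and 15 of complex V. NDUFA11, COX6A1 and COX8C carry no symbol in the count table and are not among them, and UQCRFS1 was not analysed here.

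The libraries came from 2 animals, RhDBCb and RhM22, each bled before treatment (labelled as receiving none) and again after 2-hydroxypropyl-beta-cyclodextrin. This cyclic sugar, which binds cholesterol, was injected under the skin as a 15% (w/w) solution, with a daily dose of 1 ml per kg over as long as 120 days. Blood CD4+ naive, CD4+ memory, CD8+ naive and CD8+ memory T cells were sequenced as polyadenylated RNA, 1 library for each subset, animal and draw, and CD8+ naive cells after treatment come from RhM22 alone. Every animal was treated, so no untreated animal serves as a control in time, and the labels give neither age, sex nor sorting method. With 4 draws in all, p-values measure the spread among libraries, and an animal's response and its pair of draws cannot be told apart.

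The respiratory chain passes electrons from NADH (complex I) and succinate (complex II) through complexes III and IV to oxygen, and the protons pumped on the way drive ATP synthase, complex V. Complexes I, III, IV and V combine nuclear with mitochondrially encoded subunits, whereas complex II is wholly nuclear. Resting naive T cells live largely on this pathway, activated cells add glycolysis, and memory cells are known for a large respiratory reserve.

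Libraries held 44414963 to 71787211 expected counts and 13546 to 15471 detected genes, the 3 lowest being RhDBCb libraries from before treatment. CD4 was at 207 to 549 CPM in CD4 libraries and at most 1.68 CPM in CD8 libraries. CD8A was at 665 to 861 CPM in CD8 libraries and at most 3.93 CPM in CD4 libraries. S100A4, a memory marker, was at 18.6 to 105 CPM in naive and 312 to 2213 CPM in memory libraries. The CD8 memory library of RhDBCb before treatment stood apart in cell cycle genes, with a summed level of 2873 CPM over 29 proliferation genes against 717 to 1436 CPM in the other 14 libraries. In bulk samples, fewer cells of a type and less RNA per cell cannot be told apart.

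All 67 genes were measured well enough to be tested, among 14814 genes in edgeR's quasi-likelihood test. Just above the minimum, COX7A2L, a factor that helps join complexes III and IV, averaged 1.03 CPM, and NDUFB3, a membrane arm subunit of complex I, averaged 1.44 CPM. The 4 genes under the minimum are tissue-restricted isoforms. NDUFA4L2 had 0 counts and COX4I2 had 1 count in all 15 libraries together, where 3 counts correspond to 0.0418 to 0.0675 CPM. COX6A2, the muscle form, had 14 counts in 3 libraries. COX6B2, the testis form, had 26 counts in 3 libraries and reached 0.362 CPM.

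Together the 67 genes took up 0.639 to 1.12% of the scaled counts of a library. Their summed level was 7875 ± 633 CPM (SD, n = 4 libraries) in CD4 naive, 8997 ± 1271 CPM (n = 4) in CD4 memory, 7050 ± 673 CPM (n = 3) in CD8 naive and 8243 ± 1967 CPM (n = 4) in CD8 memory cells. Naive libraries of both lineages were the lower in mean, yet all 4 ranges overlapped. The 4 highest sums came from memory and naive libraries of RhDBCb. In CD8 memory the sum was 11180 CPM before and 7271 CPM after treatment in RhDBCb, against 7038 CPM and 7480 CPM in RhM22. In CD4 memory it was 9753 CPM and 10360 CPM in RhDBCb, against 8221 CPM and 7652 CPM in RhM22.

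**Figure D1:**
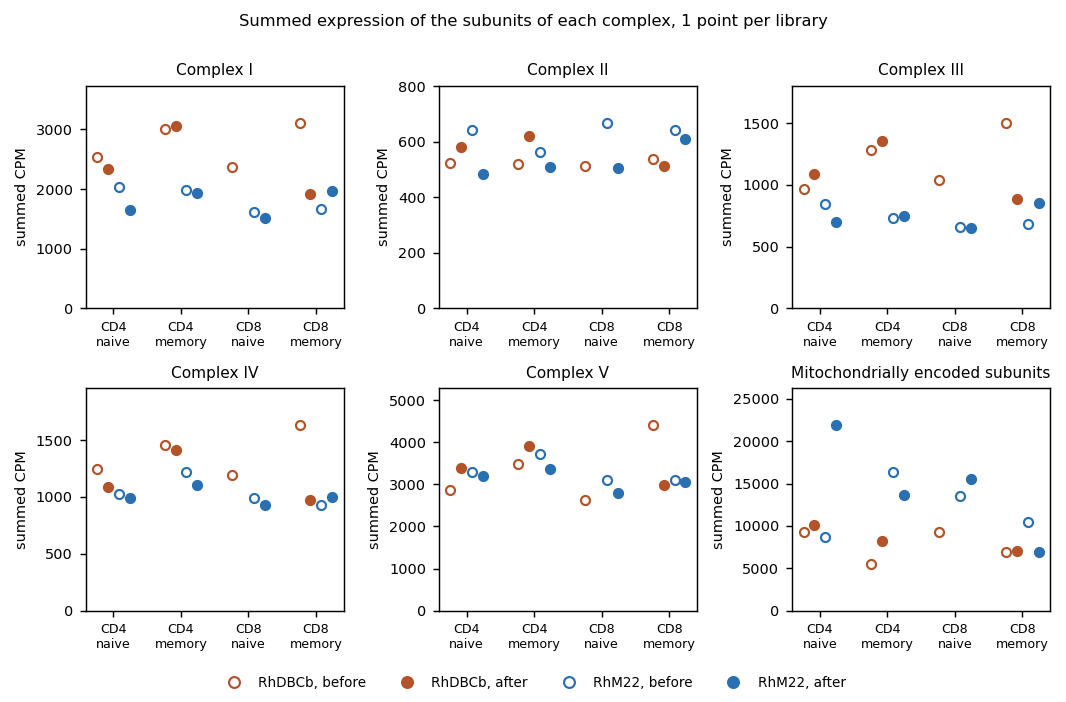
Summed CPM of the nuclear subunits of each complex, and of the 13 mitochondrially encoded subunits, with 1 point per library and the subsets along the x axis. Orange marks RhDBCb and blue RhM22; open points are before and filled points after treatment. For complex I, RhDBCb lies at 1917 to 3108 CPM and RhM22 at 1521 to 2039 CPM, whereas for the mitochondrially encoded subunits RhM22 reaches 21880 CPM.

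In the deposited FPKM (fragments per kilobase, scaled to library size), ATP5F1B, the catalytic beta subunit of ATP synthase, was highest (mean of 79.1 FPKM over 15 libraries). Next were CYC1, the cytochrome c1 of complex III (69.6 FPKM), and COX7C, a small complex IV subunit (53.9 FPKM). ATP5F1E, the epsilon subunit of the ATP synthase rotor (48.1 FPKM), and COX4I1, the regulatory complex IV subunit (44.9 FPKM), followed. The 5 lowest were NDUFS4, NDUFB3, ATP5ME, UQCRH and NDUFA10, at means of 0.165, 0.278, 0.318, 0.484 and 0.534 FPKM. These orders rest on the lengths behind the deposited FPKM. Set against the counts, those lengths come to 0.32 kb for COX7A2L and 310 kb for ATP5PO with a median of 9.15 kb. For NDUFS4, ATP5ME, UQCRH and NDUFA10 they come to 109, 101, 93.6 and 117 kb. The orders are therefore not read as abundance, and levels are compared below only within a gene.

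Genes of 1 complex did not vary to the same degree. The SD of log2 CPM over the 15 libraries had a median of 0.37 and was smallest for NDUFA10, an accessory complex I subunit (0.16), SDHB, the iron-sulfur subunit of complex II (0.16), NDUFV3, a small subunit of the NADH-oxidising tip of complex I (0.19), UQCRC2, a core subunit of complex III (0.21), and ATP5F1A, the alpha subunit of ATP synthase (0.22). It was largest for NDUFB7, a complex I membrane arm subunit on the intermembrane space side (0.87), COX7A1, the heart and muscle form of a complex IV subunit (0.79), and NDUFB3 (0.77). By complex the median SD was 0.39 for I, 0.35 for II, 0.40 for III, 0.29 for IV and 0.33 for V. In complexes II and V, a steady subunit thus stood beside more variable ones, such as SDHD (0.67) and ATP5PF (0.70).

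**Figure D2:**
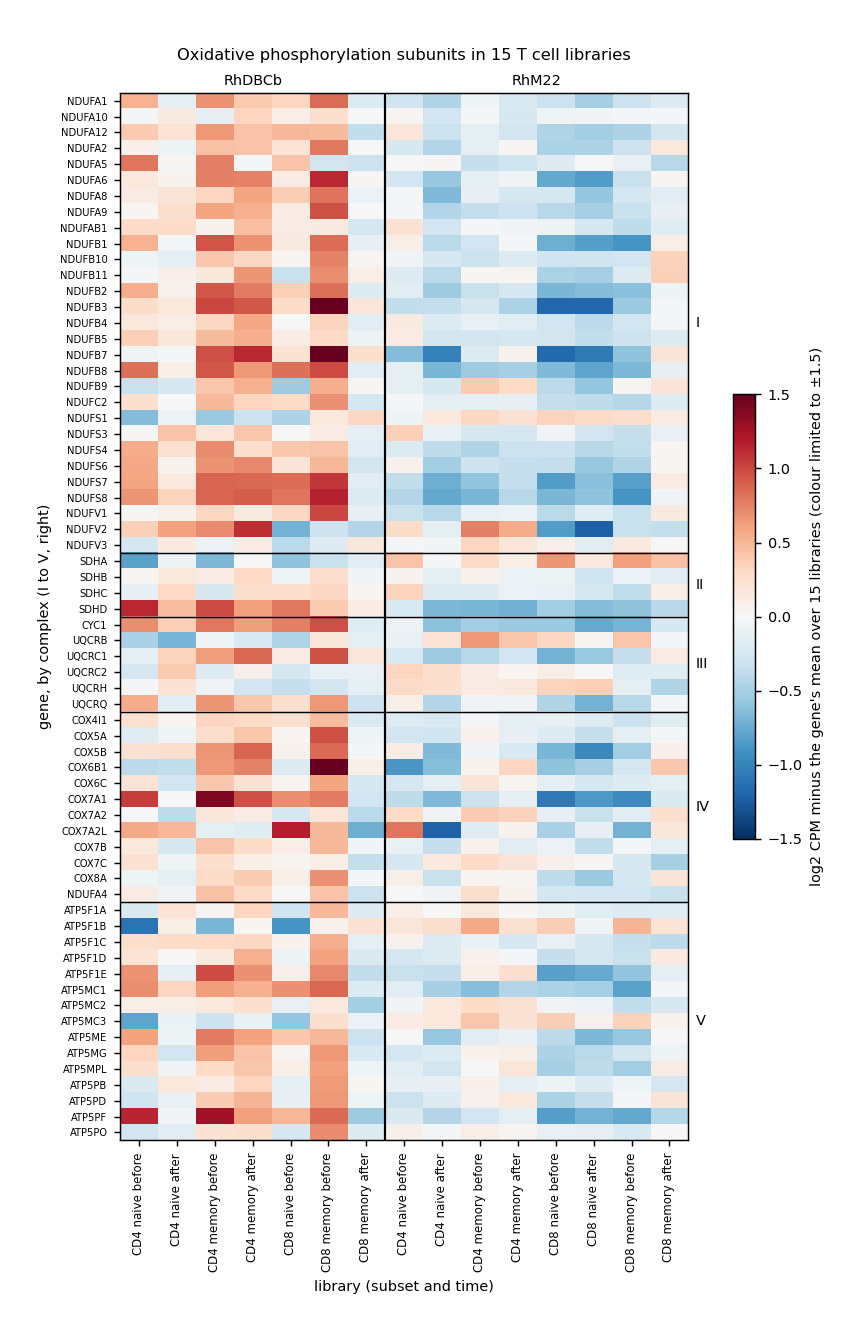
Level of all but 1 of the 67 genes (rows, grouped by complex) in each of the 15 libraries (columns), as log2 CPM minus the gene's own mean, with the colour limited to 1.5 on either side. RhDBCb CD8 memory before treatment is the highest column, with 61 of 67 genes above their own mean, and RhM22 CD8 naive after treatment the lowest, with 6 of 67.

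The first comparison asked how memory cells differ from naive cells. CD4 memory cells had higher levels of NDUFB9, a membrane arm subunit of complex I, and of COX6B1, a small complex IV subunit on the intermembrane space side. CD8 memory cells had higher levels of NDUFB9, NDUFB7, NDUFB11 and NDUFV2, all subunits of complex I. No other of the 67 genes passed the test in either contrast and none was lower, with edgeR's quasi-likelihood test at a Benjamini-Hochberg adjusted p under 0.05 over all 14814 genes. The 2 genes of 67 called higher in CD4 memory compare with 5.22% of all genes tested, and the 4 called in CD8 memory with 8.1%, so the share of the set was not above the background in either lineage.

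NDUFB9 was at 74.6 and 80.2 CPM (before and after, RhDBCb) and 85.0 and 80.0 CPM (RhM22) in CD4 naive cells, and at 126, 137, 124 and 116 CPM in the matching CD4 memory libraries. In CD8 naive cells it was at 65.2 CPM (RhDBCb before), 72.2 CPM (RhM22 before) and 63.2 CPM (RhM22 after), and in CD8 memory cells at 138, 96.0, 96.9 and 108 CPM in the order used for CD4. Every memory library lay above every naive library, in both lineages and both animals. The memory minus naive log2 fold change of NDUFB9 was 0.65 (SE 0.14, edgeR adjusted p = 0.00817) in CD4 cells and 0.72 (SE 0.15, edgeR adjusted p = 0.0059) in CD8 cells. It was the 1 gene called in both contrasts.

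COX6B1 stood at 13.3 and 13.6 CPM (before and after, RhDBCb) and at 9.55 and 11.3 CPM (RhM22) in CD4 naive cells, and at 27.5, 29.3, 18.1 and 21.95 CPM in CD4 memory cells. The naive and memory libraries of CD4 cells did not overlap, and its log2 fold change was 1.01 (SE 0.27, edgeR adjusted p = 0.0322). That call was lost when any 1 of the 8 CD4 libraries was left out. In CD8 cells the same gene was at 15.3, 11.5 and 12.4 CPM in naive and at 52.25, 18.6, 14.6 and 23.1 CPM in memory libraries, which overlapped. Its CD8 difference of 0.91 did not pass (edgeR adjusted p = 0.0578).

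NDUFB7 in CD8 cells was at 27.4 CPM (RhDBCb before), 10.5 CPM (RhM22 before) and 11.3 CPM (RhM22 after) in naive libraries, and at 91.1 and 27.9 CPM (RhDBCb before and after) and 15.5 and 26.9 CPM (RhM22) in memory libraries. The groups overlapped across animals but not within an animal, and the highest value belonged to the library that also led in proliferation genes. The log2 fold change was 1.09 (SE 0.33, edgeR adjusted p = 0.0399). NDUFB11, another membrane arm subunit, was at 47.05, 42.8 and 41.9 CPM in CD8 naive and at 96.3, 63.6, 51.3 and 76.0 CPM in CD8 memory libraries. These did not overlap, and the log2 fold change was 0.64 (SE 0.19, edgeR adjusted p = 0.0379). NDUFV2, an iron-sulfur subunit of the NADH-oxidising tip of complex I, was higher by 0.54 (SE 0.17, edgeR adjusted p = 0.0486). With 1 library left out at a time, the CD8 memory calls of NDUFV2 and NDUFB7 were each lost in 10 of 15 fits and that of NDUFB11 in 8, while that of NDUFB9 held in all 15.

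Without the CD8 memory library of RhDBCb from before treatment, 1 of the 67 genes was called in CD8 memory, and the log2 fold changes of NDUFB7 and NDUFB11 came to 0.63 and 0.49, both no longer past the threshold. Without all 4 RhDBCb libraries from before treatment, an alternative chosen after seeing the data, 6 genes were called in CD4 memory and 1 in CD8 memory. The share of all genes called in these alternative fits is not given here.

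Most genes of the set had small positive differences. In CD4 cells 57 of 67 were above 0, with a median log2 fold change of 0.22 against -0.03 over all genes tested. In CD8 cells 54 of 67 were above 0, with a median of 0.18 against 0.03. By complex, the CD4 medians were 0.17 for I, -0.05 for II, 0.12 for III, 0.29 for IV and 0.24 for V, and the CD8 medians 0.19, 0.07, 0.18, 0.17 and 0.26. Complex II, which holds no mitochondrially encoded subunit, thus had the median nearest 0 in each lineage. Higher in all 4 pairs of CD4 libraries were 26 of 67 genes, against 17.8% of all genes, and higher in all 3 pairs of CD8 libraries were 30 of 67, against 25.3%. NDUFA5 and UQCRH, 2 of 67, were lower in all 4 CD4 pairs, against 17.55% of all genes. The pairs were uneven: the median over the set was 0.20 and 0.45 in RhDBCb CD4 cells before and after, and -0.05 and 0.19 in RhM22. In CD8 cells it was 0.43 in RhDBCb before, 0.00 in RhM22 before and 0.32 in RhM22 after.

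Proliferation genes moved along with these differences: 13 of 29 were higher in CD4 memory and 16 of 29 in CD8 memory, with all 29 above 0 in each. Markers of other cell types differed too. Of 7 natural killer cell markers, 3 were higher in CD8 memory and 7 above 0. Their summed level was 12.1 to 25.7 CPM in CD8 naive and 38.8 to 90.7 CPM in CD8 memory libraries. In CD4 libraries it was 5.01 to 9.16 CPM. A few genes carried the sum: in RhM22 CD8 memory before treatment, KLRF1 was at 59.9 and TYROBP at 13.2 of 83.8 CPM. Over all libraries NCR1 was at most 2.06 CPM, NCAM1 at most 1.80 CPM and FCER1G at most 0.23 CPM. Of 12 platelet markers, 10 were below 0 in CD4 memory and 9 in CD8 memory, 1 called lower in each. Of 13 monocyte and dendritic cell markers, 10 were above 0 in CD4 memory (1 called higher) and 12 in CD8 memory (0 called by edgeR, 0 at an unadjusted p under 0.05). The part of all these in the result was not tested. The 13 mitochondrially encoded subunits did not share the direction. In CD4 memory 1 of 13 was above 0 (median -0.29), and in CD8 memory 0 of 13 (median -0.55). None of them passed edgeR's quasi-likelihood test, although 8 of 13 had an unadjusted p under 0.05 in CD8 cells and 0 of 13 in CD4 cells. In the tricarboxylic acid cycle, which feeds the chain, 2 of 17 genes were higher in CD4 memory, OGDH (0.89) and DLST (0.76), both parts of the oxoglutarate dehydrogenase complex. In CD8 memory IDH2 (1.03) and OGDH (0.88) were higher and SUCLG2 (-1.32) lower. Glycolysis had 3 of 19 genes higher in CD4 memory (TPI1 by 0.79, PFKP by 0.65) and 6 of 19 in CD8 memory (PFKL by 1.23, PFKP by 1.13). Of 48 assembly factors and partners, SDHAF4 was higher in CD4 memory (0.61), and in CD8 memory COX20 was higher (0.65) and NDUFAF4 lower (-0.79).

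**Figure D3:**
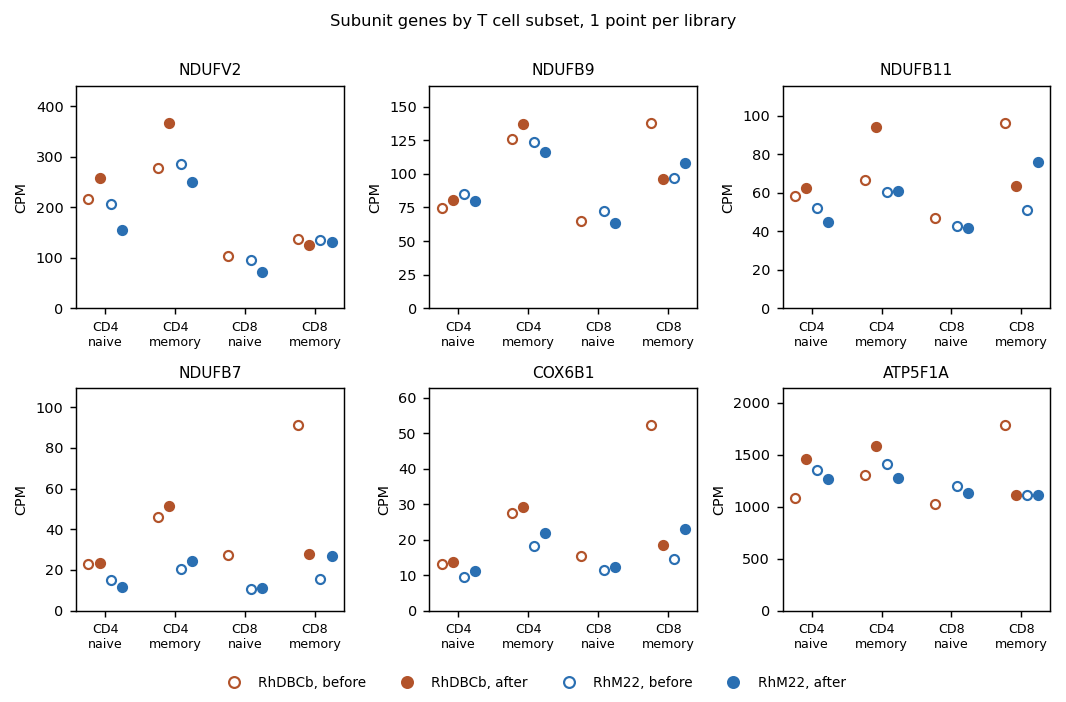
CPM of NDUFV2, NDUFB9, NDUFB11, NDUFB7, COX6B1 and ATP5F1A by subset, 1 point per library, orange for RhDBCb, blue for RhM22, open before and filled after treatment. NDUFV2 separates the lineages without overlap (at most 137 CPM in CD8, at least 154 CPM in CD4), NDUFB9 separates memory from naive, and ATP5F1A does neither.

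Between the CD4 and CD8 lineages NDUFV2 was the 1 gene called by edgeR, in naive and in memory cells; in memory cells DESeq2 called 3. It was at 217 and 258 CPM (before and after, RhDBCb) and 206 and 154 CPM (RhM22) in CD4 naive cells, and at 277, 367, 286 and 250 CPM in CD4 memory cells. In CD8 naive cells it was at 104 CPM (RhDBCb before), 94.6 CPM (RhM22 before) and 72.7 CPM (RhM22 after), and in CD8 memory cells at 137, 125, 135 and 132 CPM. All 7 CD8 libraries lay below all 8 CD4 libraries. The log2 fold change, CD8 minus CD4, was -1.18 (SE 0.17, edgeR adjusted p = 0.00107) in naive and -1.15 (SE 0.15, edgeR adjusted p = 0.000383) in memory cells. This 1 gene of 67 in each contrast compares with 1.26% of all genes called lower in CD8 naive and 2.59% in CD8 memory cells.

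NDUFV1, the flavoprotein that binds NADH beside NDUFV2, did not share that pattern: its means were 48.9 ± 8.2 CPM (SD, n = 4) in CD4 naive, 57.1 ± 8.3 CPM (n = 4) in CD4 memory, 51.9 ± 13.5 CPM (n = 3) in CD8 naive and 65.3 ± 29.8 CPM (n = 4) in CD8 memory cells. Over the whole set, 53 of 67 genes were below 0 in CD8 naive against CD4 naive cells (median -0.13, all genes -0.02) and 50 of 67 in CD8 memory against CD4 memory cells (median -0.10, all genes 0.03). Lower in all 3 naive pairs were 30 of 67, against 19.6% of all genes, and 4 (NDUFS1, SDHA, COX4I1 and COX6B1) were higher in all 3, against 18.4% of all genes. Lower in all 4 memory pairs were 7 of 67 (NDUFV2, COX7A1, COX7C, NDUFA4, ATP5F1E, ATP5MC2 and ATP5PF), against 12.5%, and none was higher, against 14.1%. The memory minus naive difference itself was not found to differ between the lineages for any gene of the set: 0 of 67 were called, against 0.0405% of all genes. In edgeR's quasi-likelihood test 1 of 67 had an unadjusted p under 0.05, COX7C at -0.45 (SE 0.21, adjusted p = 0.732), and DESeq2 also called 0. Next were ATP5MC2 at -0.28 (edgeR adjusted p = 0.908) and COX4I1 at -0.21 (edgeR adjusted p = 0.950).

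Some subunits have variants encoded by separate genes. COX7A2, the widely expressed form of the complex IV subunit 7A, was at 24.8 ± 4.8 CPM (SD, n = 4) in CD4 naive, 29.8 ± 2.7 CPM (n = 4) in CD4 memory, 21.3 ± 1.6 CPM (n = 3) in CD8 naive and 24.8 ± 5.1 CPM (n = 4) in CD8 memory cells. Its muscle counterpart COX7A1 was at 4.01 ± 2.35, 5.69 ± 3.21, 3.18 ± 2.34 and 3.53 ± 1.88 CPM in the same order. COX7A2 did not pass between animals, and COX7A1 did. ATP5MC1, ATP5MC2 and ATP5MC3 are separate genes for the c-ring subunit of ATP synthase. ATP5MC2 was at 51.0 ± 2.9, 56.5 ± 1.9, 45.5 ± 0.956 and 41.4 ± 8.6 CPM, ATP5MC3 at 99.2 ± 26.6, 113 ± 25.3, 107 ± 33.4 and 118 ± 15.7 CPM, and ATP5MC1 at 19.0 ± 6.9, 18.5 ± 7.9, 17.1 ± 8.7 and 17.9 ± 9.0 CPM. No gene of this trio passed in any contrast between subsets. COX4I1, whose alternative form COX4I2 was all but unread, was at 323 ± 49.6, 357 ± 56.0, 326 ± 53.9 and 322 ± 89.0 CPM. COX8A, the common form of the smallest subunits of complex IV, was at 41.3 ± 5.0, 50.7 ± 6.4, 37.1 ± 8.9 and 50.7 ± 15.0 CPM. UQCRH, the hinge protein of complex III, was at 51.0 ± 4.9, 44.5 ± 6.0, 49.7 ± 12.4 and 37.6 ± 3.8 CPM.

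Treatment was compared over all subsets with animal and subset as terms. None of the 67 genes passed, against 0.00675% of all genes (1 gene). In edgeR's quasi-likelihood test 4 of 67 had an unadjusted p under 0.05, against 1526 of all 14814 genes. DESeq2 also called 0. Values nearest to a call were COX7B, an accessory complex IV subunit, at -0.26 (SE 0.09, edgeR adjusted p = 0.379), NDUFA1, a small complex I membrane arm subunit, at -0.33 (SE 0.12, edgeR adjusted p = 0.410), and UQCRQ, a small complex III subunit, at -0.34 (SE 0.14, edgeR adjusted p = 0.445). Below 0 were 57 of 67 genes, with a median of -0.13 against 0.01 over all genes. All 12 complex IV genes were below 0 (median -0.19), whereas 12 of the 13 mitochondrially encoded subunits were above 0 (median 0.19) without any passing. Of all genes tested, 51.05% were above 0. The complex IV direction was not shared by every pair. In CD8 memory cells its median was -0.79 in RhDBCb, with 0 of 12 genes above 0, and 0.28 in RhM22, with 9 of 12 above 0.

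COX7B was at 69.1 and 52.5 CPM (before and after) in RhDBCb CD4 naive, 82.8 and 74.95 CPM in CD4 memory and 87.2 and 60.2 CPM in CD8 memory cells. In RhM22 it was at 57.4 and 48.5 CPM in CD4 naive, 64.0 and 55.4 CPM in CD4 memory, 58.3 and 47.8 CPM in CD8 naive and 60.4 and 56.3 CPM in CD8 memory cells. The level after treatment was below that before in all 7 pairs, with log2 differences of -0.10 to -0.53, while the ranges of all before and all after libraries overlapped. NDUFA4, a complex IV subunit once assigned to complex I, was the other gene lower in all 7 pairs, with log2 differences of -0.03 to -0.74. These 2 of 67 compare with 1.86% of all genes.

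The pairs did not move together over the set. In CD8 memory cells of RhDBCb the median log2 difference after against before was -0.72, with 5 of 67 genes above 0, and in those of RhM22 it was 0.24, with 50 of 67 above 0. CD4 naive cells had medians of -0.07 (RhDBCb) and -0.23 (RhM22), CD4 memory cells 0.01 and -0.03, and CD8 naive cells of RhM22 -0.09. Without the CD8 memory library of RhDBCb from before treatment, the median over all subsets was -0.06 rather than -0.13.

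In the fit of single subsets, which share 1 estimate of spread, edgeR's quasi-likelihood test called 0 of 67 genes after treatment in each of CD4 naive, CD4 memory, CD8 naive and CD8 memory cells, against 0% of all genes in each. None had an unadjusted p under 0.05, and DESeq2 called 0 in each. Above 0 were 18 of 67 in CD4 naive (median -0.18), 36 in CD4 memory (0.01), 16 in CD8 naive (-0.09) and 4 in CD8 memory cells (-0.18). The CD8 memory median became 0.08 without the RhDBCb library from before treatment. By edgeR, the smallest p-values belonged to SDHD, a membrane anchor of complex II, in CD4 naive cells (-0.56, adjusted p = 0.897), NDUFA5, a complex I subunit of the matrix arm, in CD4 memory cells (-0.40, adjusted p = 1), NDUFV2 in CD8 naive cells (-0.35, adjusted p = 1) and NDUFA4 in CD8 memory cells (-0.41, adjusted p = 1). Next in order were UQCRQ and ATP5ME, both -0.62, in CD4 naive cells, SDHC (0.31) and NDUFB11 (0.26) in CD4 memory, NDUFA8 (-0.35) and UQCRQ (-0.36) in CD8 naive, and COX5A (-0.50) and ATP5PB (-0.43) in CD8 memory cells.

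The change after treatment was then taken in each animal. In RhDBCb, SDHA, the flavoprotein that oxidises succinate in complex II, and ATP5F1B rose. ATP5PF, the F6 subunit of the ATP synthase stalk, ATP5F1E, ATP5MG, a membrane subunit of ATP synthase, NDUFB8 and NDUFA1, both of the complex I membrane arm, UQCRQ and COX6C, a small complex IV subunit, fell. The 2 called higher compare with 5.49% of all genes and the 7 called lower with 4.62%. In RhM22, 0 of 67 passed, against 0.0608% of all genes, with 1 of 67 at an unadjusted p under 0.05 in edgeR's quasi-likelihood test and 0 called by DESeq2. That gene was SDHA, at -0.34 (SE 0.12, edgeR adjusted p = 0.529), followed by NDUFV2 at -0.25 (edgeR adjusted p = 0.811) and COX7B at -0.21 (edgeR adjusted p = 0.820).

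SDHA in RhDBCb was at 167 CPM (CD4 naive), 182 CPM (CD4 memory), 191 CPM (CD8 naive) and 230 CPM (CD8 memory) before, and at 276, 290 and 261 CPM (CD4 naive, CD4 memory and CD8 memory) after treatment. In RhM22 the 4 subsets were at 391, 354, 458 and 445 CPM before and at 286, 308, 320 and 393 CPM after. Before and after did not overlap in RhDBCb and overlapped in RhM22. The log2 fold change in RhDBCb was 0.55 (SE 0.13, edgeR adjusted p = 0.0193), and the change in RhM22 minus that in RhDBCb was -0.89 (SE 0.18, edgeR adjusted p = 0.0153).

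ATP5F1B in RhDBCb was at 322 (CD4 naive), 428 (CD4 memory), 373 (CD8 naive) and 724 CPM (CD8 memory) before and at 735, 699 and 813 CPM (CD4 naive, CD4 memory, CD8 memory) after. RhM22 was at 786, 1024, 889 and 988 CPM before and at 827, 812, 670 and 796 CPM after. The lowest values were thus the RhDBCb libraries from before treatment other than CD8 memory, and that CD8 memory library lay within the range after treatment. The RhDBCb change was 0.69 (SE 0.18, edgeR adjusted p = 0.0314), and the difference between the animals' changes was -0.93 (SE 0.25, edgeR adjusted p = 0.0491).

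ATP5PF went the other way. In RhDBCb it was at 158 (CD4 naive), 172 (CD4 memory), 101 (CD8 naive) and 130 CPM (CD8 memory) before and at 69.1, 110 and 49.7 CPM after, against 61.9, 59.0, 40.3 and 42.2 CPM before and 52.9, 65.3, 43.9 and 53.5 CPM after in RhM22. It fell in each of the 3 RhDBCb pairs, and the RhDBCb groups overlapped only through CD4 memory after treatment. The RhDBCb change was -1.03 (SE 0.17, edgeR adjusted p = 0.00364) and the difference between animals 1.12 (SE 0.22, edgeR adjusted p = 0.0143). GABPA overlaps ATP5PF in RefSeq's T2T-MMU8v2.0 assembly, and the library kit does not mark strand, so reads from the overlap cannot be told apart. GABPA was at 19.7 to 55.7 CPM and its RhDBCb difference was 0.53 (edgeR adjusted p = 0.0894).

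ATP5F1E in RhDBCb was at 359 (CD4 naive), 444 (CD4 memory), 237 (CD8 naive) and 373 CPM (CD8 memory) before and at 206, 363 and 175 CPM after. RhM22 was at 179, 241, 128 and 150 CPM before and at 178, 268, 134 and 204 CPM after. RhDBCb libraries were lower after treatment in each of 3 pairs, whereas RhM22 was nearly level or higher. The RhDBCb change was -0.70 (SE 0.15, edgeR adjusted p = 0.0104), and the difference between animals 0.87 (SE 0.19, edgeR adjusted p = 0.025). With 1 library left out at a time, the difference between the animals' changes was no longer past the threshold in 8 of 15 fits for ATP5F1E, 14 for ATP5F1B, 2 for SDHA and 2 for ATP5PF.

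**Figure D4:**
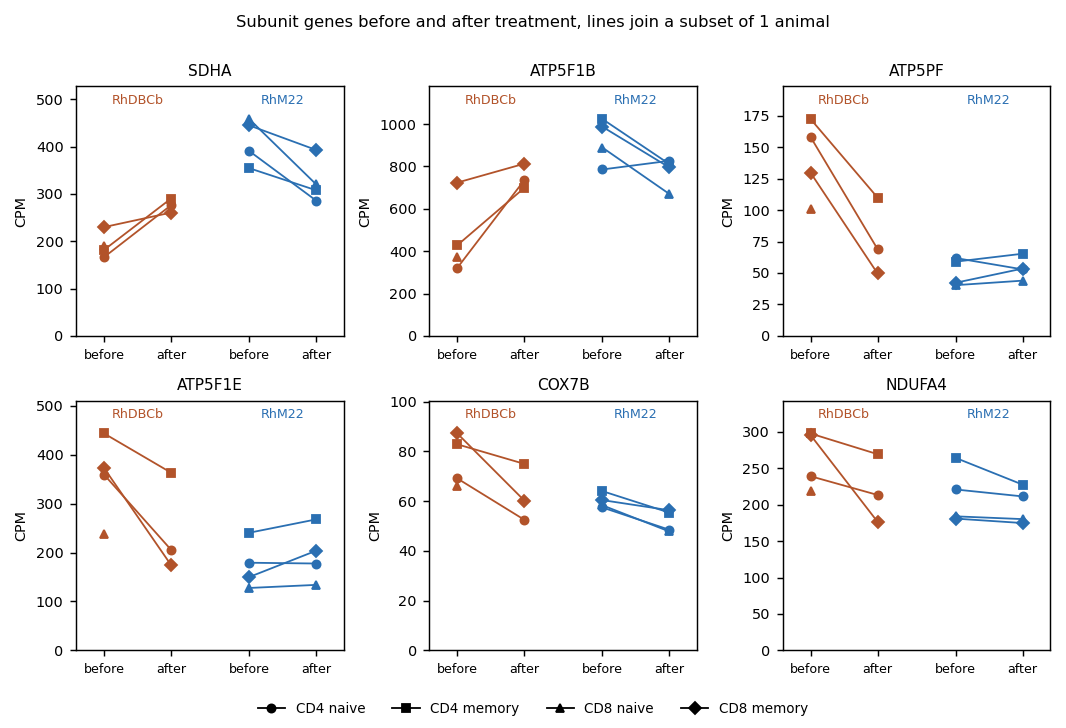
CPM of SDHA, ATP5F1B, ATP5PF, ATP5F1E, COX7B and NDUFA4 before and after treatment in each animal, with lines joining the 2 libraries of a subset. In RhDBCb SDHA rises to 261 to 290 CPM and ATP5PF drops to 49.7 to 110 CPM, while COX7B and NDUFA4 slope down in all 7 pairs.

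Subunits of ATP synthase therefore changed in opposite directions within RhDBCb, the catalytic ATP5F1B up and ATP5F1E, ATP5PF and ATP5MG (-0.53, SE 0.13, edgeR adjusted p = 0.0254) down, with ATP5F1A at 0.03 (edgeR adjusted p = 0.946). In complex II, SDHA rose while SDHB (0.01), SDHC (0.13) and SDHD (-0.45) did not pass. Other calls in RhDBCb were NDUFB8 at -0.73 (SE 0.21, edgeR adjusted p = 0.0403), UQCRQ at -0.64 (SE 0.18, edgeR adjusted p = 0.0392), NDUFA1 at -0.62 (SE 0.14, edgeR adjusted p = 0.0166) and COX6C at -0.46 (SE 0.14, edgeR adjusted p = 0.0486). Leaving out 1 library at a time, the calls of NDUFB8 and UQCRQ were each lost in 10 of 15 fits, that of ATP5F1B in 6, that of SDHA in 4, those of NDUFA1 and ATP5MG in 3 each and that of ATP5F1E in 2. For COX6C, whose adjusted p was nearest the threshold, the number of such fits is not given here. Over the set, 51 of 67 genes were below 0 in RhDBCb (median -0.27) and 42 of 67 in RhM22 (median -0.05). Between the animals' changes, 2 of 67 were called higher, against 1.81% of all genes, and 2 lower, against 2.77%.

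Other mitochondrial lists in RhDBCb gave 7 of 70 mitochondrial ribosome genes lower and none higher, and 2 of 48 assembly factors lower, COX19 (-0.82) and COX16 (-0.64). Of 17 genes of the tricarboxylic acid cycle and its entry, PDHA1 (1.19), a pyruvate dehydrogenase subunit, was higher and 2 were lower, among them MDH2 (-0.74), malate dehydrogenase. Of 12 regulators of mitochondrial biogenesis, POLRMT (0.95), the mitochondrial RNA polymerase, was higher, and TFB1M (-0.86) and TFB2M (-0.77) were lower. PPARGC1A, a coactivator of this programme, had 0 counts in all libraries. Some platelet transcripts rose in the same contrast and others fell. The summed level of 14 platelet markers was 6.99 to 12.3 CPM in RhDBCb before, 16.9 to 40.0 CPM after, and 26.7 to 121 CPM in RhM22. Of the 12 that were tested, 4 were higher in RhDBCb after treatment. The defining platelet gene GP1BA was at 0 in 12 of 15 libraries, all 7 of RhDBCb among them. GP9 was at 0 in the 4 RhDBCb libraries from before treatment. PPBP was at 1.13 to 2.81 CPM before against 9.19 to 15.3 CPM after in RhDBCb. MYL9 fell in all 3 RhDBCb pairs, from 1.68 to 0.88 CPM in CD4 naive, 1.97 to 1.90 CPM in CD4 memory and 2.66 to 1.21 CPM in CD8 memory cells. ITGB3 and SPARC fell in CD4 memory and CD8 memory cells of RhDBCb, while ITGB3 rose in CD4 naive cells. The part of platelet transcripts in the result was not tested.

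More genes of the set were called between the animals than between times or subsets, in a comparison that was chosen once the data had been looked at. It sets 1 animal against 1 animal, and its p-values measure the spread among libraries. A difference between the animals cannot be told apart from one between their draws or any processing batch. RhM22 had lower levels of 36 of 67 genes, against 17.2% of all genes, and higher levels of 5, against 18.6%. The 36 genes are 53.7% of the set. Complex I held 20 of the calls lower (of 30 genes, median -0.50), complex IV 6 of 12 (-0.32), complex V 6 of 15 (-0.32), complex III 3 of 6 (-0.19) and complex II 1 of 4 (-0.20). The median over the set was -0.37, against 0.06 over all genes.

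SDHD ranged from 101 to 206 CPM (median 143) in the 7 RhDBCb libraries and from 57.0 to 80.0 CPM (median 60.7) in the 8 RhM22 libraries. The animals did not overlap, and its log2 fold change, RhM22 minus RhDBCb, was -1.18 (SE 0.13, edgeR adjusted p = 3.15e-05). SDHA, its partner in complex II, ranged from 167 to 290 CPM (median 230) and from 286 to 458 CPM (median 373), and differed by 0.70 (SE 0.15, edgeR adjusted p = 0.00308), the opposite direction. SDHB (-0.18) and SDHC (-0.21) did not pass.

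In complex I, the iron-sulfur subunits near the quinone site were lower in RhM22. NDUFS8 was at 50.9 to 131 CPM (median 102) in RhDBCb and 31.8 to 56.7 CPM (median 37.6) in RhM22, with the ranges overlapping through RhDBCb CD8 memory after treatment, at a log2 fold change of -1.22 (SE 0.19, edgeR adjusted p = 0.000425). NDUFS7 differed by -1.11 (SE 0.20, edgeR adjusted p = 0.000918) between 56.9 to 133 CPM and 35.5 to 69.3 CPM. NDUFB7 differed by -1.14 (SE 0.22, edgeR adjusted p = 0.00149) and NDUFB3 by -1.14 (SE 0.28, edgeR adjusted p = 0.00681). NDUFS1, a large iron-sulfur subunit that carries electrons from the NADH site, was higher in RhM22 by 0.42 (SE 0.13, edgeR adjusted p = 0.021), at 56.3 to 74.6 CPM against 37.7 to 73.5 CPM. NDUFS3 (-0.27) did not pass.

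In complex III, CYC1 was at 199 to 438 CPM (median 363) in RhDBCb and 134 to 211 CPM (median 153) in RhM22, with 1 RhDBCb library inside the RhM22 range, a log2 fold change of -1.05 (edgeR adjusted p = 0.000227). UQCRC1, a core subunit, differed by -0.77 (edgeR adjusted p = 0.00126), whereas its partner UQCRC2 (0.11) did not pass and UQCRB, a small accessory subunit, was higher by 0.54 (SE 0.12, edgeR adjusted p = 0.00397). In complex IV, COX7A1 differed by -1.19 (SE 0.24, edgeR adjusted p = 0.00186), between 2.94 to 9.58 CPM in RhDBCb and 1.69 to 3.26 CPM in RhM22.

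In complex V, ATP5F1B was higher in RhM22 by 0.62 (SE 0.18, edgeR adjusted p = 0.0154) and ATP5MC3 by 0.47 (SE 0.14, edgeR adjusted p = 0.0151). ATP5MC1, for the same c-ring subunit, was lower (-0.94, edgeR adjusted p = 0.00124), as were ATP5PF (-0.96, edgeR adjusted p = 0.00175), ATP5F1E (-0.64, edgeR adjusted p = 0.00557) and ATP5F1C, the gamma shaft of the rotor (-0.41, edgeR adjusted p = 0.00705). ATP5F1A, at 1024 to 1780 CPM in RhDBCb and 1110 to 1408 CPM in RhM22, did not pass (-0.08, edgeR adjusted p = 0.637), nor did ATP5F1D (-0.32), ATP5PO (-0.05) or ATP5MC2 (-0.02). In all 7 matched pairs 12 of 67 genes were lower in RhM22, against 8.88% of all genes. SDHA, UQCRB and ATP5MC3, 3 of 67, were higher, against 9.76% of all genes.

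More of these calls were made before treatment than after. Before treatment 39 of 67 genes were lower in RhM22, against 18.3% of all genes, and 6 were higher, against 19.4%, with a median of -0.49. COX7A1 (-1.67), NDUFS8 (-1.54), NDUFS7 (-1.48), NDUFB7 (-1.46), ATP5PF (-1.46) and NDUFB3 (-1.44) were lowest, and SDHA (1.10), ATP5F1B (1.04), ATP5MC3 (0.65), NDUFS1 (0.58), UQCRB (0.53) and NDUFV3 (0.37) were higher. After treatment 3 were lower, against 3.15% of all genes, among them SDHD (-0.99, SE 0.17, edgeR adjusted p = 0.00579) and CYC1 (-0.78, SE 0.20, edgeR adjusted p = 0.0336). None was higher, and the median was -0.28. In edgeR's quasi-likelihood test 25 of 67 had an unadjusted p under 0.05, and the share of all genes is not given here. These contrasts share libraries with the change in RhDBCb. For SDHA the 3 values were 1.10 between animals before, 0.55 after against before in RhDBCb and 0.21 between animals after, and for ATP5PF they were -1.46, -1.03 and -0.34.

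**Figure D5:**
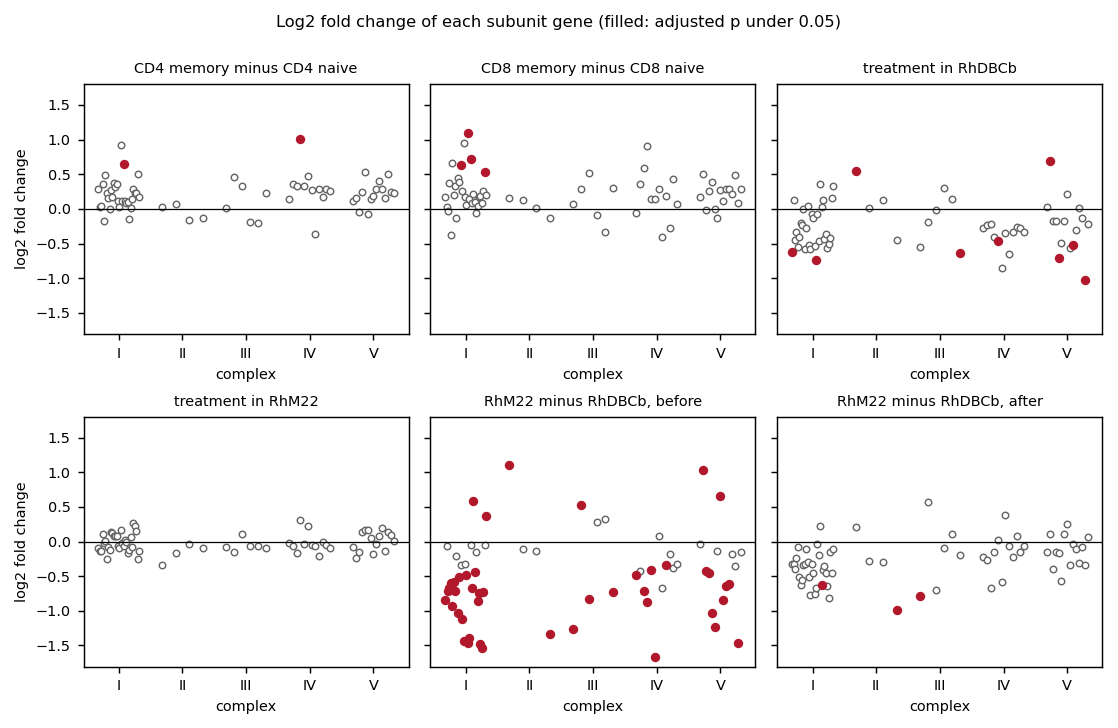
Log2 fold change of each of the 67 genes, by complex, in 6 comparisons, with filled red points at an edgeR adjusted p under 0.05. The difference between animals before treatment is the broadest panel, with 39 genes called lower and 6 higher; the memory contrasts lie mostly above 0 with 2 and 4 calls.

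Mitochondrially encoded subunits went the other way between the animals: 9 of 13 were higher in RhM22, all 13 were above 0, and the median was 0.69. CYTB of complex III differed by 1.06 (edgeR adjusted p = 0.00215) and ND2 of complex I by 1.01 (edgeR adjusted p = 0.00203). Their summed level was 5561 to 10100 CPM in RhDBCb and 6878 to 21880 CPM in RhM22, which overlapped. Not every matched pair went this way. The sum was lower in RhM22 in CD4 naive cells before (8749 against 9247 CPM) and in CD8 memory cells after treatment (6878 against 7085 CPM). In the other matched pairs it was higher. Nuclear genes of other mitochondrial functions differed by list. In RhM22, 36 of 70 mitochondrial ribosome genes were lower and 2 higher. In the tricarboxylic acid cycle DLST was higher (1.13), and IDH2 (-0.76) and SUCLA2 (-0.75) were lower. Of 48 assembly factors 21 were lower, UQCC2 (-1.34) and ATPAF1 (-1.06) by most, and 3 higher, among them LRPPRC (0.62), which stabilises mitochondrial messenger RNA, and CYCS (0.45), cytochrome c itself. Biogenesis regulators had 5 of 12 higher, with MYC at 0.84 and TFAM, which packages mitochondrial DNA, at 0.69, and 1 lower, TFB1M at -1.22. In glycolysis 3 of 19 were higher (ENO2 by 2.45, LDHA by 0.56) and 4 lower (TPI1 at -0.82, ENO1 at -0.79).

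Values of other cell types and states differed between the animals as well. Proliferation genes had 9 of 29 lower and 1 higher in RhM22. Of 12 platelet markers tested 5 were higher in RhM22, as were 5 of 13 monocyte and dendritic cell markers tested. Over 14 monocyte and dendritic cell markers the summed level was 13.4 to 50.4 CPM in RhDBCb and 39.5 to 70.4 CPM in RhM22. In RhM22 CD4 naive cells CD1C alone was at 32.2 of 42.8 CPM before and 45.4 of 64.9 CPM after treatment. S100A8 was at most 1.12 CPM and S100A9 at most 0.34 CPM in any library. Before treatment ITGAX was lower in RhM22 (-1.37, edgeR adjusted p = 0.0211). The part of proliferation and of these markers in the result was not tested. Without the CD8 memory library of RhDBCb from before treatment, 33 of the 67 genes were called lower in RhM22 and 5 higher.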

How the data were processed

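RNA was prepared with an RNeasy Micro kit and a SMART-Seq v4 kit, which does not mark strand, per the labels' protocols. The submitters' processing notes list RSEM 1.3.3, cutadapt 1.18 and STAR 2.7.6a, with Mmul_10 and rheMac10 as builds. The authors deposited RSEM expected counts and FPKM for 15 libraries. Expected counts were rounded, which moved a library's total by at most 26.1.

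Genes were filtered with filterByExpr (minimum count 10; 14814 remained), scaled by TMM and tested with edgeR 4.0.16 (limma 3.58.1, R 4.3.3; quasi-likelihood F test). Benjamini-Hochberg adjustment ran over all genes tested, at 0.05. CPM used TMM-scaled totals. Subset, treatment and animal comparisons came from a model with subset, time and animal terms. Changes within an animal added an animal-by-time term, and single subsets used 8 subset-by-time groups plus animal. All 15 libraries entered each fit. Animal was a block: deviations from subset-by-time means correlated between libraries of 1 animal in all 21 pairs (0.195 to 0.501). The script was tested on simulated data. DESeq2 1.42.0, other scaling, no filter, no block and leaving out each library were alternatives.

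Genes were ordered by level only in the deposited FPKM, and that order was not read as abundance. CPM printed for several genes side by side is not corrected for length. The members and lists were chosen with earlier results of these data known. Named in full were up to 6 called genes per direction, or the 3 with the smallest p, and core subunits and isoform families, and 1 gene's own values are not reported here. RefSeq's T2T-MMU8v2.0 table held 65 of 67 genes (not NDUFB9 or ATP5MPL), 23 of which overlap another gene, among them ATP5PF, ATP5F1B, COX7B, COX7A1, NDUFA1 and NDUFS7, whose reads cannot be told apart there. Sequences were not used here.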

Additional observations from a re-analysis of the deposited data

Results flagged for a closer look

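For 4 subunits the change after treatment differed between the animals, by the test of the difference itself (edgeR's quasi-likelihood test of the animal-by-time term). The change in RhM22 minus that in RhDBCb was -0.89 for SDHA and -0.93 for ATP5F1B, which rose in RhDBCb, and 0.87 for ATP5F1E and 1.12 for ATP5PF, which fell there. Leaving out 1 library at a time, the difference was lost in 14 of 15 fits for ATP5F1B, 8 for ATP5F1E, 2 for SDHA and 2 for ATP5PF. With 1 draw per animal and time, an animal's response and its pair of draws cannot be told apart. No subset and time holds more than 2 libraries, too few to set the gap of 1 sample against the range of its group.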

How the results depend on the processing

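Precision is limited by 2 animals and 4 draws. For the alternatives, here and above, the share of all genes called is not given. Their counts of called genes therefore cannot be set against a background. NDUFB9 in both memory contrasts and NDUFV2 in both lineage contrasts kept their calls in 21 of 22 alternatives each, and the exception in each case was the contrast of before libraries alone. Without the animal as a replicate block, 1 gene was called in CD4 memory and 1 in CD8 memory. With a block for each draw, 7 were called in CD4 memory, 7 in CD8 memory and 4 in CD8 against CD4 memory. From before libraries alone, 0 were called in all 4 subset contrasts, and the median lineage difference in the memory change was 0.15. DESeq2 called 6 in CD4 memory, 7 in CD8 memory, 3 in CD8 against CD4 memory, 7 between the animals' changes and 11 between animals after treatment. With no filter on low counts, 2 were called in CD8 memory. Without the 4 RhDBCb libraries from before treatment, 6 were called in CD4 memory, 1 in CD8 memory and 5 in CD8 against CD4 memory, with the median lineage difference at -0.09. Leaving out each library gave 1 to 5 in CD4 memory (5 without RhDBCb CD8 memory after), 1 to 8 in CD8 memory (8 without the same library), 1 to 4 in CD8 against CD4 memory (4 without RhDBCb CD8 memory before), 32 to 47 between animals, 32 to 46 before and 1 to 15 after treatment. The change in RhDBCb gave 1 to 15 (1 without its CD4 naive library after, 15 without its CD4 memory library after), and the difference of changes 0 to 8 (0 without RhDBCb CD4 naive after or RhM22 CD8 naive before, 8 without RhDBCb CD4 memory after). ATP5PF kept its call in RhDBCb in all 18 alternatives, SDHA in 14 and ATP5F1B in 12. ATP5F1B kept its difference of changes in 2 of 18. The change of NDUFA5 in CD4 memory after treatment, -0.40, ranged from -0.76 (without RhM22 CD4 memory before) to 0.062 (without RhDBCb CD4 memory before). The cause was not tested.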
